A study of Rattus norvegicus with 20 samples.

Results

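The soleus of rats with an ischemic hindlimb was compared with the soleus of sham-operated rats, 5 libraries against 5 of the 20 in the series. The animals were Sprague Dawley rats. Ischemia was produced by occluding the iliac and femoral arteries with an endovascular catheter, and the control groups had a sham operation. The other 10 libraries are gastrocnemius of the same 2 treatments, and they enter the fit only to share its estimate of the spread and for the test of the difference between muscles. RNA was selected by its poly(A) tail and read from both ends. The labels give no age, no time between operation and sampling, and no statement that each library came from a separate rat, so p-values measure the spread between these libraries. Of 21926 gene entries in the table, 11693 reached 1 FPKM in at least 5 of the 20 libraries and were tested.

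The soleus is a postural muscle built mainly of slow, oxidative fibres that burn fatty acids and amino acids in abundant mitochondria. When a limb artery is blocked, muscle fibres lose oxygen and substrate, and tissue that is injured is rebuilt by macrophages, endothelial cells and fibro-adipogenic progenitors, the Pdgfra-positive stromal cells that lay down extracellular matrix. Branched-chain amino acids (leucine, isoleucine and valine) are broken down largely in muscle, where mitochondrial enzymes turn them into products that feed the TCA cycle.

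The slow fibre identity was checked first. Myh7, the slow myosin heavy chain, averaged 7441 FPKM in sham soleus and 6112 in ischemic soleus, whereas Myh4, a fast myosin heavy chain, averaged 84.5 and 119.7 FPKM. Without sham library 4, described next, the sham mean of Myh7 was 8221 FPKM. Soleus library totals lay between 57.5 and 85.4 M counts. Sham library 4 stood apart from every other soleus library. It had 8048 genes at 1 FPKM or more against 10644 to 10876 in the other 4 sham libraries, and its median correlation with its own group was 0.793 against 0.986 to 0.987. Its level lay below the range of the other sham libraries for 45.2% of the genes tested and above it for 44.2%. The genes below that range had a median transcript length of 3.31 kb, as implied by the ratio of counts to FPKM, and those above it 1.81 kb. Over 11105 genes, Spearman's rho between that length and the ratio of library 4 to the other sham libraries was -0.48, and no other sham library had a rho beyond -0.28 against the rest. Without library 4, the rho between length and the log2 fold change of ischemia over sham was 0.01. These correlations are across genes of the same libraries and are descriptions only. Results are given without sham library 4, with the value from all libraries beside them where it is stated.

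**Figure D1:**
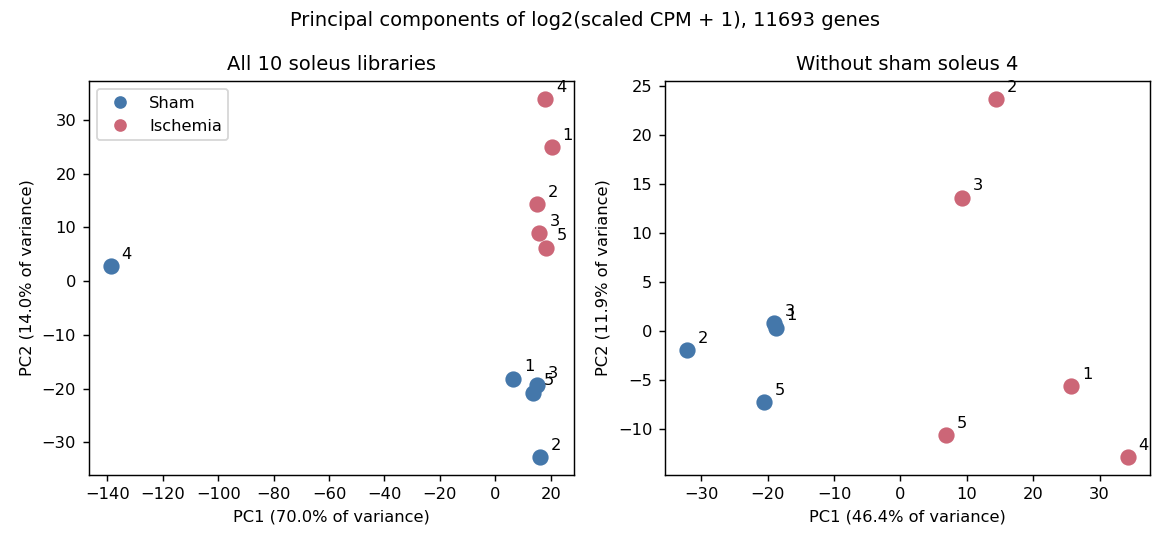
Principal components of log2(scaled CPM + 1) of the genes tested, each point 1 soleus library with its number, blue for sham and red for ischemia, with all 10 libraries on the left and without sham library 4 on the right. On the left the first component, 70.0% of the variance, separates sham library 4 from the rest, and on the right the first component, 46.4%, places the 4 sham libraries from -32.15 to -18.78 and the 5 ischemic ones from 6.85 to 34.27.

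With all libraries, 121 genes passed an adjusted p of 0.05 in edgeR's quasi-likelihood test, 62 higher in ischemia (0.53% of the genes tested) and 59 lower (0.505%). Without sham library 4, 719 passed, 307 higher (2.63%) and 412 lower (3.52%). The balance of rises and falls turned with the scaling. With library totals in place of TMM factors, 387 were higher and 11 lower with all libraries, and 1133 higher and 112 lower without sham library 4. Limma on log2(FPKM + 1) gave 1590 higher and 57 lower, and 1653 higher and 165 lower, for the same sets. All 121 genes were among the 719 and had the same sign. The 62 rises had a median log2 fold change of 1.14 with all libraries and 1.07 without library 4, and the 59 falls a median of -0.915 and -0.681. With library 4, 53 of the 59 falls and 51 of the 62 rises were larger than without it. Levels per library are given in the order of libraries 1 to 5, in CPM scaled with TMM factors ("scaled CPM"). Below, "rose" and "fell" refer to genes that passed without sham library 4, and "in both fits" marks those that also passed with it. A gene not so marked may not pass with all libraries. Counts of list members that rose or fell are to be set beside the shares of all genes, 2.63% and 3.52%. List counts at an unadjusted p below 0.05, all without sham library 4, are to be set beside 3142 of all 11693 genes. List counts in DESeq2 without that library are to be set beside 817 rises and 842 falls among all 11693. For the fit of the soleus libraries alone without it, there were 1583 rises and 1097 falls. Every ischemic library lay above every one of the 5 sham libraries for 806 genes (6.89%) and below every one for 774 (6.62%). The shares without sham library 4 were not counted. They cannot be smaller, because separation from fewer libraries is a weaker condition. The number of genes passing was unsteady. Leaving out 1 library at a time gave 1 to 737 genes from the full set and 35 to 1139 from the set without sham library 4, the 35 without sham library 2.

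**Figure D2:**
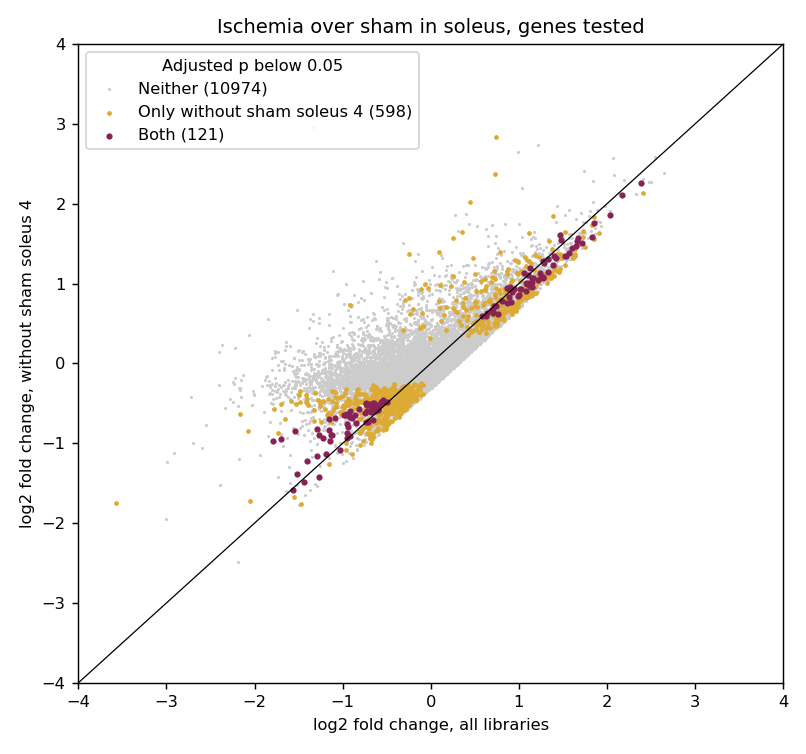
The log2 fold change of ischemia over sham in soleus with all libraries (x axis) and without sham library 4 (y axis), each point 1 of the genes tested, with the line of equal change in black. The 121 genes passing in both fits have the same sign on both axes, 598 more pass only without sham library 4, and 1 gene lies outside the plotted range.

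The enzymes of branched-chain amino acid breakdown were lower after ischemia. Of 20 genes tested, 12 fell and 0 rose, beside the 3.52% of all genes that fell, and all 20 had a negative log2 fold change, with a median of -0.58 against -0.0122 for all genes. With all libraries 4 fell (Ivd, Pcca, Auh and Hibadh) and 19 were negative, with a median of -0.60. The summed level of the 20 genes lay between 3036 and 3492 scaled CPM in the other 4 sham libraries, at 3789 in sham library 4, and between 1786 and 2687 in the ischemic ones, so the sums did not overlap. Outside sham library 4, Oxct1 and Acat1 were the most abundant members and weighed most in these sums. Neither passed in edgeR's test (adjusted p 0.185 and 0.0548). Both overlapped between groups, with Oxct1 at 969.7 in ischemic library 5 and 890.2 in sham library 3. Without sham library 2 in addition to library 4, 0 passed. Scaling by library totals alone, which moved the median of all genes from -0.0122 to 0.178, left 6 falls and a median of -0.391.

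The first enzyme complex of the pathway, the branched-chain ketoacid dehydrogenase, is represented by Bckdha and Bckdhb, the parts of its catalytic subunit, and Dbt, its transacylase core. Dbt had 67.6, 72.6, 65.5, 32.3 and 66.7 scaled CPM in sham and 43.8, 44.1, 38.2, 38.8 and 53.95 in ischemic libraries. Without sham library 4 the groups did not overlap, and the log2 fold change was -0.64 ± 0.12 (SE) with an adjusted p of 0.0101; with it the adjusted p was 0.0998. Bckdha, chosen after its values were seen, had 162, 165, 166, 863 and 143 scaled CPM in sham and 111, 111, 128, 104 and 112 in ischemic libraries, a log2 fold change of -0.50 ± 0.12 and an adjusted p of 0.0288 (0.0594 with all libraries). Bckdhb had 70.9, 40.9, 49.1, 75.3 and 49.1 scaled CPM in sham and 33.6, 44.5, 40.1, 45.9 and 43.01 in ischemic libraries. Its groups overlapped, and its log2 fold change of -0.34 ± 0.18 did not pass (adjusted p 0.233). Sham library 4 held several times the Bckdha level of any other library and less Dbt than any other library, so Bckdha and Dbt deviated there in opposite directions.

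Ivd, isovaleryl-CoA dehydrogenase of the leucine branch, had 229.9, 272, 257, 463 and 242 scaled CPM in sham and 144, 129, 122, 117 and 162 in ischemic libraries. Every ischemic library was below every sham library, and the log2 fold change was -0.89 ± 0.18 with an adjusted p of 0.0145 (-1.12 and 0.0383 with all libraries). The next steps of that branch are taken by methylcrotonyl-CoA carboxylase, whose subunits Mccc1 (-0.70 ± 0.13, adjusted p 0.0111) and Mccc2 (-0.55 ± 0.13, adjusted p 0.0255) both fell, and by the hydratase Auh. Auh had 28.3, 26.3, 25.9, 57.9 and 30.8 scaled CPM in sham and 19.3, 17.9, 15.2, 15.4 and 20.7 in ischemic libraries, and its log2 fold change of -0.65 ± 0.14 passed in both fits.

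Acadsb, which oxidises the isoleucine intermediate, had 40.4, 47.4, 39.6, 1.22 and 45.8 scaled CPM in sham and 20.02, 22.03, 19.1, 20.8 and 26.9 in ischemic libraries. The ischemic libraries were all below the sham libraries other than library 4, which was nearly devoid of the transcript. Its log2 fold change was -0.99 ± 0.21 with an adjusted p of 0.0156, and -0.68 with 0.397 when library 4 was kept. In the valine branch Hibadh had 160.3, 157, 155, 206 and 144 scaled CPM in sham and 108, 110.5, 101, 79.7 and 113 in ischemic libraries, with no overlap and a log2 fold change of -0.59 ± 0.14 in both fits. Aldh6a1, the methylmalonate semialdehyde dehydrogenase, had 325, 373, 322, 201 and 318 scaled CPM in sham and 195, 201, 219.9, 163 and 219.5 in ischemic libraries, a log2 fold change of -0.74 ± 0.15 and an adjusted p of 0.013 (0.0599 with all libraries). Propionyl-CoA, the shared product of isoleucine and valine, is carboxylated by Pcca and Pccb and isomerised by Mmut, and all 3 fell, with log2 fold changes of -0.57, -0.48 and -0.58. Pcca had 28.8, 32.3, 28.8, 32.9 and 29.5 scaled CPM in sham and 21.2, 18.5, 21.2, 16.3 and 23.2 in ischemic libraries, and its groups did not overlap.

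**Figure D3:**
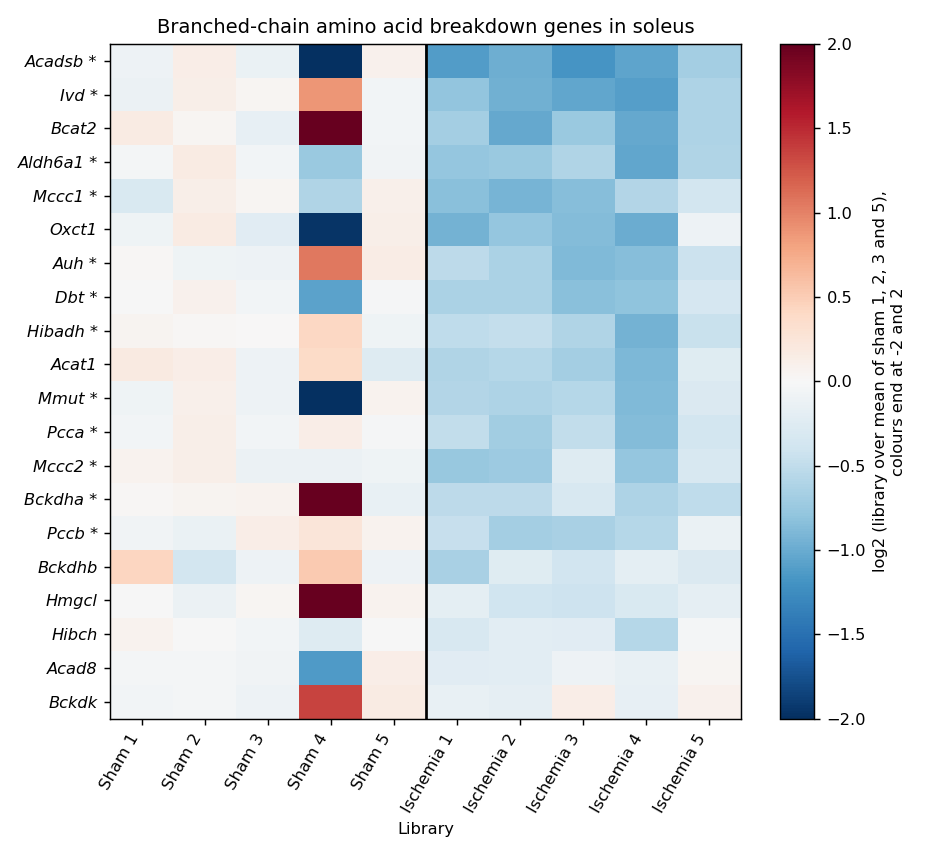
Each cell is the log2 ratio of 1 soleus library to the mean of sham libraries 1, 2, 3 and 5 for 1 of the 20 branched-chain amino acid breakdown genes, ordered by log2 fold change, with an asterisk for an adjusted p below 0.05 without sham library 4. The ischemic columns are blue for most genes while sham library 4 is dark in both directions, with Acadsb at 1.22 and Bckdha at 863 scaled CPM.

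Klf15, a transcription factor known from mouse muscle to drive genes of branched-chain amino acid breakdown, had 23.5, 27.6, 26.03, 54.3 and 25.9 scaled CPM in sham and 13.9, 9.62, 16.1, 11.3 and 16.6 in ischemic libraries. All ischemic libraries were below all sham libraries, and the log2 fold change was -0.93 ± 0.20 with an adjusted p of 0.0156, passing in both fits. Gcdh, which degrades lysine and tryptophan intermediates and was chosen after its values were seen, had 50.3, 41.2, 44.8, 47.8 and 45.97 scaled CPM in sham and 29.4, 32.9, 31.8, 29.1 and 39.4 in ischemic libraries and a log2 fold change of -0.49 ± 0.11. In gastrocnemius the 20 genes had a median log2 fold change of -0.0881, with 16 of 20 negative. The difference between muscles did not pass for any of the 20 in edgeR's test, with all libraries (smallest adjusted p 0.722, with 9 at an unadjusted p below 0.05) or without sham library 4 (smallest adjusted p 0.499), so a difference in response between the muscles is not shown.

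Promoter windows of 3 of the genes that fell in both fits or without sham library 4 are printed below because they share a match to the E-box CAGCTG, a motif bound by myogenic regulatory factors. They are RefSeq sequences on the GRCr8 build, 250 bases before to 50 after the start site, 5′ to 3′ on the gene's strand, with the match in capitals. Dbt lies at chr2:207166410-207166709 on the plus strand, Auh at chr17:12481171-12481470 on the plus strand and Nqo1 at chr19:52220218-52220517 on the minus strand. The match starts at -15 from the start site in Dbt, -122 in Auh and 34 in Nqo1.
Dbt: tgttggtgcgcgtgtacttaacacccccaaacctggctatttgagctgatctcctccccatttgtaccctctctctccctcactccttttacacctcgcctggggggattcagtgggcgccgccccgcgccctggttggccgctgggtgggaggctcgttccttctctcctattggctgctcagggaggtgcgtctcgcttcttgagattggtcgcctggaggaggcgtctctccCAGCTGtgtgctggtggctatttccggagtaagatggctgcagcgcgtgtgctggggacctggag
Auh: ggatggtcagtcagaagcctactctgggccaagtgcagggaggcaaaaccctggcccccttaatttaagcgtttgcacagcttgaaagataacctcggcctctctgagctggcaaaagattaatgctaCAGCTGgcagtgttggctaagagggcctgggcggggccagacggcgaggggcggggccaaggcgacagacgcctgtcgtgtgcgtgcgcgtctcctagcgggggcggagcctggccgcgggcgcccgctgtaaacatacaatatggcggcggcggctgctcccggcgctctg
Nqo1: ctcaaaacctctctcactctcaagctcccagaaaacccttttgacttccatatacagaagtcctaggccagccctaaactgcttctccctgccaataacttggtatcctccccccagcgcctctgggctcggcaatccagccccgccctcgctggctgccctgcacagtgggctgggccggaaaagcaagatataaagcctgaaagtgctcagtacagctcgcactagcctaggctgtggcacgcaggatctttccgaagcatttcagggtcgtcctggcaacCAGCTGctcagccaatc
Of the genes tested, 8421 had such a window by symbol. CAGCTG, which reads the same on both strands, was in 16.0% of these windows, in 5 of 17 of the branched-chain amino acid genes (29.4%), and in 11 of 43 windows (25.6%) each for the genes that rose and that fell in both fits. Another 4 motifs were searched on both strands. The hypoxia response core ACGTG was in 26.0% of all windows, 27.9% of the risers, 23.3% of the fallers and 5.9% of the branched-chain genes. The antioxidant response element TGACNNNGC was in 14.9%, 20.9%, 14.0% and 11.8% of the same sets. The nuclear receptor motif AAGGTCA was in 2.7%, 0.0%, 2.3% and 0.0%, and the AP-1 site TGANTCA in 4.7%, 9.3%, 7.0% and 0.0%. TGACNNNGC and TGANTCA can overlap. None of the 4 was in the 3 printed windows, which says only that these letters are absent there.

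Nqo1, a quinone reductase and a standard target of the antioxidant regulator Nrf2, had 73.7, 74.98, 72.1, 98.4 and 46.01 scaled CPM in sham and 19.2, 27.3, 30.7, 16.2 and 34.6 in ischemic libraries. Every ischemic library lay below every sham library. The log2 fold change was -1.38 ± 0.20 with an adjusted p of 0.00847, and -1.51 with 0.0136 with all libraries. Aldh1a1, a retinaldehyde dehydrogenase, had 103, 129, 97.8, 51.4 and 79.1 scaled CPM in sham and 44.8, 45.2, 31.9, 27.2 and 41.3 in ischemic libraries, with no overlap and a log2 fold change of -1.42 ± 0.25 (adjusted p 0.00967). Aldh2, the mitochondrial aldehyde dehydrogenase, was chosen after its values were seen and had 252, 227, 216, 646 and 196 scaled CPM in sham and 123, 132, 133, 103 and 138 in ischemic libraries. Its log2 fold change was -0.82 ± 0.17, and -1.29 with sham library 4, whose level was far above the others. Adhfe1, a mitochondrial hydroxyacid dehydrogenase, had 18.7, 16.02, 18.4, 29.2 and 16.6 scaled CPM in sham and 8.41, 8.13, 7.099, 5.21 and 8.54 in ischemic libraries and a log2 fold change of -1.22 ± 0.27 in both fits.

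Of the 28 Nrf2 and antioxidant genes tested, 3 fell and 1 rose (1 and 3 with library totals), beside 3.52% and 2.63% of all genes. Of the 28, 21 were negative, with a median of -0.28. Besides Nqo1 the falls were the mitochondrial peroxidase Prdx3 (-0.47 ± 0.11, adjusted p 0.0226) and the lipid peroxidase Gpx4. Gpx4 had 154, 140, 142, 768 and 126 scaled CPM in sham and 105, 95.9, 101, 98.4 and 99.2 in ischemic libraries. The groups did not overlap with or without sham library 4, but the log2 fold change was -0.49 without it and -1.41 with it, as that library lay far above every other.

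Some chaperones fell as well. Of 23 heat shock and chaperone genes, 6 fell, beside the 3.52% of all genes that fell. Of the 23, 0 rose and 18 were negative, with a median of -0.25. With all libraries 3 fell, and without sham libraries 2 and 4, 0 fell. With library totals the median was -0.0621, 12 of 23 were negative and 2 fell. Hspa1l, an Hsp70 family member, had 84.9, 89.7, 75.2, 123 and 79.5 scaled CPM in sham and 37.3, 38.98, 37.9, 30.5 and 40.2 in ischemic libraries, with no overlap and a log2 fold change of -1.15 ± 0.22 (adjusted p 0.012). Hsp90ab1, the constitutive cytosolic Hsp90, had 1825, 1875, 2131, 2722 and 1844 scaled CPM in sham and 1082, 1402, 1355, 1012 and 1361 in ischemic libraries, with no overlap and a log2 fold change of -0.63 ± 0.14 in both fits. The constitutive Hsp70 gene Hspa8 (-0.38) and its exchange factor Hsph1 (-0.89), chosen after their values were seen, fell without sham library 4. The small heat shock protein of muscle Hspb3 fell in both fits (-0.60 ± 0.12), although its groups overlapped by 1 sham library. Its binding partner Hspb2 had 59.7, 53.2, 54.8, 308 and 51.4 scaled CPM in sham and 45.5, 40.4, 46.3, 39.3 and 39.9 in ischemic libraries. Hspb2 fell by 0.37 on the log2 scale without sham library 4 (adjusted p 0.0156) and had a log2 fold change of -1.32 with it (adjusted p 0.0637).

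Of 16 TCA cycle genes, 3 fell, beside the 3.52% of all genes that fell, and 15 were negative, with a median of -0.34 (-0.40 with all libraries). The 3 were malate dehydrogenase Mdh2 (-0.47 ± 0.11) and the succinyl-CoA ligase subunits Suclg2 (-0.45 ± 0.10) and Sucla2 (-0.38 ± 0.11), and none passed with all libraries. Of 25 fatty acid oxidation genes, 2 fell, beside the same 3.52%, and 23 were negative, with a median of -0.41. Echs1, the enoyl-CoA hydratase, passed in both fits (-0.75 ± 0.20), and Hsd17b10, a dehydrogenase shared with isoleucine breakdown, passed without sham library 4 (-0.50 ± 0.09). Of 34 nuclear complex I genes 0 passed in edgeR's test, with or without sham library 4. Without it 9 had an unadjusted p below 0.05, beside 3142 of all 11693 genes. In DESeq2 without it 1 fell, beside 842 of all genes. All 34 were negative without it, with a median of -0.24, and the median was -0.81 with it. With library totals 20 of 34 were negative, 0 of 16 TCA cycle genes fell and 1 rose, and 0 of 25 fatty acid oxidation genes fell. The 13 mitochondrially encoded genes went from a median of -0.83 with sham library 4 to 0.03 without it. With library totals, to which the shares of counts below also refer, the median without it was 0.219. Mitochondrially encoded genes took 33.3% of the counts in sham library 4, 18.7% ± 1.596 (SD, n = 4) in the other sham libraries and 21.7% ± 0.841 (n = 5) in the ischemic ones. That difference without library 4 had an exact two-sided permutation p of 0.01587, the smallest possible with 4 against 5, and 0.03175 adjusted over the 4 measures compared. With all libraries the sham mean was 21.6% ± 6.68 and p was 0.9921.

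Some sarcomere genes fell without sham library 4. Of 24 genes of the Z-disc, the costamere and excitation-contraction coupling, 4 fell (1 with library totals), beside the 3.52% of all genes that fell. Of the 24, 23 were negative, with a median of -0.46 (-0.47 with all libraries). Myot, a Z-disc protein that crosslinks actin, had 451, 523, 541, 168 and 465 scaled CPM in sham and 325, 261, 307, 221 and 300.4 in ischemic libraries. Without sham library 4 the groups did not overlap and the log2 fold change was -0.81 ± 0.14 with an adjusted p of 0.00967. Myom1 of the M-band (-0.60 ± 0.16) fell too. Of 13 slow sarcomere genes 0 passed in edgeR's test (0 at an unadjusted p below 0.05, and 0 in DESeq2), although all 13 were negative in both fits, with a median of -0.45 without sham library 4. Myh7 had 42500, 52580, 48800, 54090 and 44880 scaled CPM in sham and 33710, 26400, 32060, 25790 and 37250 in ischemic libraries. On this scale all ischemic libraries were below all sham libraries, yet the log2 fold change of -0.60 ± 0.86 had an adjusted p of 0.692, as its SE in the fit over both muscles was larger than the change. The place of sham library 4, with a TMM factor of 0.495, turned with the scaling. In FPKM, which carry no TMM factor, Myh7 was at 4321 there, below the mean of 6112 in the ischemic libraries. In the fit of the soleus libraries alone without sham library 4, 9 of the 13 fell, beside 1097 of all 11693 genes. Of 12 fast sarcomere genes 0 passed in edgeR's test and 7 were higher, with a median of 0.13. An unadjusted p below 0.05 was found for 3, beside 3142 of all 11693 genes. Their summed level was 3242 to 8185 scaled CPM in sham and 2276 to 12780 in ischemic libraries.

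Further genes that fell in both fits encode muscle regulators and enzymes. Alpk3, an alpha-kinase of the sarcomere, had 1512, 1799, 1810, 1327 and 1471 scaled CPM in sham and 651, 854, 929, 566 and 875 in ischemic libraries, with no overlap and a log2 fold change of -1.09 ± 0.19 (adjusted p 0.00967). Mettl21c, a muscle lysine methyltransferase, had 129.7, 217, 309.7, 197 and 195 scaled CPM in sham and 51.3, 74.2, 102, 57.99 and 68.8 in ischemic libraries and a log2 fold change of -1.59 ± 0.38. Apobec2, a muscle member of the cytidine deaminase family, had 924, 1234, 891, 4830 and 954 scaled CPM in sham and 582, 448, 605, 439.9 and 468 in ischemic libraries. Its log2 fold change was -0.98 without sham library 4 and -1.80 with it. Ppp1r1a, an inhibitor of protein phosphatase 1, went likewise from -1.70 to -0.95 when library 4 was left out. Falls of 0.90 to 1.48 on the log2 scale without library 4 were also found for the histone gene Hist2h4a (-1.48), Fam50a (-1.14), the kinase Wnk2 (-0.98), the corepressor Cbfa2t3 (-0.93), Nudt4 (-0.91) and the threonine-degrading Gcat (-0.90). Hist2h4a belongs to a multigene family whose members can share reads, so its level is uncertain.

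**Figure D4:**
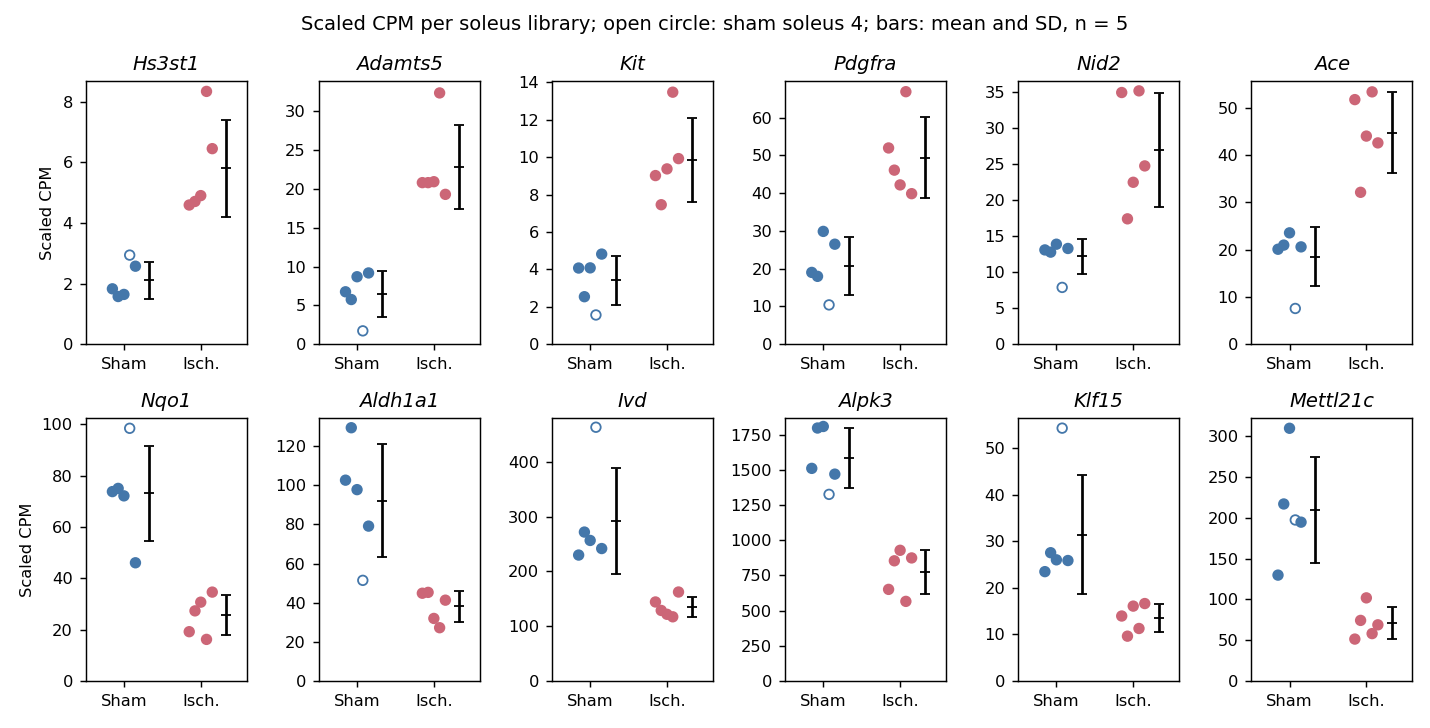
Scaled CPM of 12 genes in each soleus library (y axis from 0), blue for sham and red for ischemia, with sham library 4 as an open circle and bars for mean and SD of all 5 libraries of a group. The top row shows genes that rose and the bottom row genes that fell, all in both fits, and in none of the 12 do the groups overlap.

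Matrix and stromal genes were among the rises. Of 13 fibrillar and fibril-associated collagens all 13 were higher after ischemia, but only 1, Col5a2, rose. The median log2 fold change was 1.31, and 1.42 with all libraries. Their summed level was 1248 to 2141 scaled CPM in the sham libraries, the lowest in library 4, and 3275 to 8704 in the ischemic ones, without overlap. Col5a2, a chain of the collagen that seeds fibril assembly, had 50.4, 50.7, 74.4, 25.01 and 62.8 scaled CPM in sham and 239.7, 124, 118, 206 and 136 in ischemic libraries. Its log2 fold change was 1.47 ± 0.38 with an adjusted p of 0.0354, in both fits. Col6a1, a chain of microfibrillar collagen, had 97.4, 91.98, 119, 44.3 and 111 scaled CPM in sham and 363, 176, 172, 336 and 190 in ischemic libraries and missed the threshold at an adjusted p of 0.0548. Without sham library 4, 9 of the 13 rose in DESeq2, beside 817 of all 11693 genes. In the fit of the soleus libraries alone without it, 11 rose, beside 1583 of all genes.

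Among 26 matrix glycoproteins and proteoglycans, 3 rose, beside the 2.63% of all genes that rose, and 25 were higher, with a median of 1.21. Smoc2, a secreted matricellular protein, had 39.8, 31.9, 49.3, 43.2 and 43.1 scaled CPM in sham and 124, 77.4, 105, 116 and 77.5 in ischemic libraries, with no overlap and a log2 fold change of 1.28 ± 0.30 in both fits. Ltbp1, which stores latent TGF-beta in the matrix, had 23.4, 17.7, 19.3, 8.35 and 17.01 scaled CPM in sham and 44.95, 32.5, 30.3, 53.8 and 38.3 in ischemic libraries and a log2 fold change of 1.05 ± 0.24 in both fits. Fbln2 (1.02 ± 0.29) rose without sham library 4. Nid2, a linker of basement membranes, had 13.1, 12.8, 13.9, 7.88 and 13.3 scaled CPM in sham and 34.9, 17.4, 22.5, 35.1 and 24.7 in ischemic libraries and a log2 fold change of 1.02 ± 0.19 (adjusted p 0.0101). It was 1 of 2 of 13 basement membrane genes that rose.

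Matrix enzymes and their inhibitors held 5 rises among 21 genes, against 2.63% of all genes, and 20 were higher, with a median of 1.18. With all libraries 1 rose and the median was 0.90. Without sham libraries 2 and 4, 0 rose. Adamts5, a protease that cuts aggrecan and versican, had 6.76, 5.76, 8.695, 1.72 and 9.18 scaled CPM in sham and 20.8, 20.8, 20.9, 32.4 and 19.3 in ischemic libraries. All ischemic libraries were above all sham libraries, and the log2 fold change was 1.59 ± 0.32 with an adjusted p of 0.0146. Loxl2, which crosslinks collagen and elastin, had 9.71, 10.1, 13.8, 0.531 and 10.2 scaled CPM in sham and 33.03, 26.2, 28.1, 48.5 and 25.1 in ischemic libraries and a log2 fold change of 1.56 ± 0.42 without that of sham library 4, the lowest of all libraries. Timp2, an inhibitor of matrix metalloproteinases, had 44.7, 38.3, 69.1, 81.95 and 62.2 scaled CPM in sham and 139, 115, 101, 140.2 and 105 in ischemic libraries and a log2 fold change of 1.16 ± 0.33.

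Of 18 fibro-adipogenic progenitor and fibroblast markers listed, 14 passed the filter on low values. Of these, 5 rose and 1 fell, beside 2.63% and 3.52% of all genes, and 13 were higher, with a median of 1.14. Without sham library 1 or 2 or ischemic library 4, in addition to sham library 4, 0 rose. Their summed level was 1371 to 2180 scaled CPM in sham libraries other than 4, at 2853 in library 4, and 3022 to 4416 after ischemia. Gsn alone made up 998 to 1730, 2066 and 2378 to 3501 of these sums. Without Gsn the sums were 372.7 to 449.5 in sham libraries other than 4, 787 in library 4 and 644.5 to 915.3 after ischemia, so only library 4 overlapped the ischemic range. Pdgfra, the defining receptor of these cells, had 19.01, 17.97, 29.9, 10.4 and 26.5 scaled CPM in sham and 51.96, 46.1, 42.2, 66.9 and 39.9 in ischemic libraries, with no overlap and a log2 fold change of 1.08 ± 0.25 in both fits. Gsn, an actin-severing protein high in fibroblasts, had 1170, 998, 1730, 2066 and 1361 scaled CPM in sham and 2547, 2829, 3198, 3501 and 2378 in ischemic libraries and a log2 fold change of 1.14 ± 0.30 without sham library 4. Cxcl12, a chemokine made by stromal cells, went the other way. It had 131, 125, 113, 32.1 and 74.3 scaled CPM in sham and 70.1, 42.03, 59.3, 58.5 and 42.4 in ischemic libraries, and its log2 fold change was -1.02 ± 0.24 with an adjusted p of 0.0267, against -0.80 and 0.107 with all libraries. In bulk tissue, more cells of a type and more RNA per cell cannot be told apart.

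The receptors Tgfbr2 and Tgfbr3 were the rises among 18 genes of TGF-beta and PDGF signalling, while the signalling receptor Tgfbr1 did not pass. Of all genes 2.63% rose. The co-receptor Tgfbr3 had 24.1, 23.6, 28.6, 12.6 and 23.9 scaled CPM in sham and 47.5, 43.1, 43.3, 48.7 and 43.4 in ischemic libraries, with no overlap and a log2 fold change of 0.85 ± 0.19 (adjusted p 0.0188) in both fits. Tgfbr2, which binds the ligand and signals with Tgfbr1, had 21.3, 24.04, 25.2, 4.72 and 27.1 scaled CPM in sham and 57.8, 39.9, 41.1, 48.9 and 34.9 in ischemic libraries and a log2 fold change of 0.87 ± 0.21 without sham library 4, whose level was far below the other sham libraries. Cd47, the surface protein that inhibits phagocytosis and binds thrombospondin, was 1 of 2 rises among 18 integrins and matrix receptors. It had 12.2, 11.5, 13.8, 9.41 and 13.7 scaled CPM in sham and 21.6, 19.8, 18.2, 21.5 and 17.97 in ischemic libraries and a log2 fold change of 0.63 ± 0.13 in both fits.

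The next 5 genes were chosen after their values were seen, belong to no list described here and rose in both fits. Ace, the angiotensin-converting enzyme, had 20.1, 20.98, 23.6, 7.57 and 20.6 scaled CPM in sham and 51.8, 32.1, 44.05, 53.4 and 42.6 in ischemic libraries. All ischemic libraries were above all sham libraries, with a log2 fold change of 1.07 ± 0.20 and an adjusted p of 0.0115. Agtr1a, a receptor for angiotensin II, had 3.03, 1.99, 3.28, 3.31 and 2.47 scaled CPM in sham and 6.702, 5.68, 4.196, 9.17 and 4.95 in ischemic libraries and a log2 fold change of 1.19 ± 0.26. Nt5e, which makes adenosine from AMP outside the cell, had 5.75, 5.53, 5.96, 3.97 and 7.15 scaled CPM in sham and 10.5, 10.1, 9.17, 14.2 and 7.77 in ischemic libraries and a log2 fold change of 0.76 ± 0.18. The ectonucleotidase Enpp1 (0.71 ± 0.17) and Enpp2, which makes lysophosphatidic acid (0.83 ± 0.15), also rose without overlap.

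Lysosomal genes were a further group in which rises outnumbered falls. Of 26 tested, 10 rose, beside the 2.63% of all genes that rose, 0 fell and 23 were higher, with a median of 0.45. None passed with all libraries, although the median was then 0.46. Without sham library 2 or ischemic library 4, in addition to sham library 4, 0 rose. Ctsl, a cysteine protease of the lysosome that is also counted among atrophy genes, had 65.8, 57.7, 68.7, 97.1 and 64.8 scaled CPM in sham and 122, 114, 107, 155 and 108 in ischemic libraries. Its groups did not overlap, its log2 fold change was 0.91 ± 0.21 with an adjusted p of 0.0242, and the adjusted p was 0.0598 with all libraries. Npc2, which exports cholesterol, had 27.3, 21.6, 21.9, 63.6 and 23.2 scaled CPM in sham and 33.3, 42.2, 42.4, 51.05 and 37.8 in ischemic libraries and a log2 fold change of 0.81 ± 0.19, and sham library 4 was above every ischemic library. The acid lipase Lipa (0.49 ± 0.13) rose with overlapping groups. Macrophage markers, whose cells are rich in lysosomes, had a summed level of 116.7 to 261.9 scaled CPM in sham libraries other than 4, 632 in library 4 and 330.2 to 534.2 after ischemia. Of 24 listed, 18 passed the filter on low values. All 18 were higher without sham library 4, with a median of 1.09, and 15 of 18 were higher with all libraries. However, 0 passed in edgeR's test. Without sham library 4, 16 had an unadjusted p below 0.05, beside 3142 of all 11693 genes. In DESeq2 7 rose, beside 817 of all genes. Folr2, a marker of resident macrophages, had 3.45, 2.93, 5.61, 14.3 and 4.82 scaled CPM in sham and 9.28, 8.96, 7.72, 14.8 and 7.805 in ischemic libraries and an adjusted p of 0.0684, and Csf1r, the receptor for their growth factor, had a log2 fold change of 1.07 ± 0.37 and an adjusted p of 0.0799. No macrophage marker that was tested was at 0 in every soleus library. Their part in the lysosomal result was not tested. The median of the 8 MHC class II genes tested, of 9 listed, depended on sham library 4, going from -0.11 with it (3 higher) to 0.92 without it (8 higher), and 0 passed in either edgeR fit (without library 4, 6 at an unadjusted p below 0.05, and 2 rose in DESeq2).

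Of 16 endothelial markers, 1 rose, beside the 2.63% of all genes that rose, and 13 were higher, with a median of 0.42. Cd93, a receptor of endothelial cells, had 30.3, 29.9, 22.5, 1.97 and 22.5 scaled CPM in sham and 49.9, 41.5, 44.7, 64.4 and 36.7 in ischemic libraries and a log2 fold change of 0.85 ± 0.21 without sham library 4. Thbd, the endothelial thrombin receptor that activates protein C, had 20.1, 14.6, 20.7, 13.6 and 14.8 scaled CPM in sham and 31.1, 31.6, 35.2, 48.8 and 30.3 in ischemic libraries, with no overlap and a log2 fold change of 1.01 ± 0.26 in both fits. It was the 1 rise among 21 complement and coagulation genes, beside the 2.63% of all genes that rose. Of the 21, 20 were higher, with a median of 1.048. Without sham library 4, 15 had an unadjusted p below 0.05 in edgeR's test, beside 3142 of all 11693 genes. In DESeq2 10 rose, beside 817 of all genes, and with library totals 6 rose. Of 18 angiogenic factors and receptors 0 passed in edgeR's test and 0 in DESeq2. An unadjusted p below 0.05 was found for 6, again beside 3142 of all 11693 genes. Vegfa, the main angiogenic ligand, had 226, 274, 203, 86.8 and 288 scaled CPM in sham and 238, 266, 294, 189 and 264 in ischemic libraries and a log2 fold change of 0.01 ± 0.35. Kit, the stem cell factor receptor of mast cells, had 4.07, 2.54, 4.08, 1.56 and 4.82 scaled CPM in sham and 9.01, 7.46, 9.37, 13.5 and 9.92 in ischemic libraries, with no overlap and a log2 fold change of 1.34 ± 0.28 in both fits. It was the 1 rise among 5 neutrophil and mast cell genes tested, of 13 listed. All 5 were higher without sham library 4, with a median of 0.92, and 4 were higher with all libraries, with a median of 0.23.

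The largest rises in both fits included genes outside these groups. Parm1, a mucin-like membrane protein, had 4.27, 3.72, 4.05, 3.22 and 4.08 scaled CPM in sham and 8.42, 32.9, 20.4, 16.7 and 8.45 in ischemic libraries and a log2 fold change of 2.11 ± 0.49. Scrn1 had 4.51, 7.41, 3.84, 2.19 and 6.22 scaled CPM in sham and 28.3, 11.9, 9.97, 22.8 and 26.6 in ischemic libraries and a log2 fold change of 1.86 ± 0.48. Fgl2, a prothrombinase of macrophages and endothelium, had 9.196, 7.998, 11.97, 6.63 and 10.4 scaled CPM in sham and 42.7, 27.1, 27.5, 31.8 and 17.6 in ischemic libraries and a log2 fold change of 1.57 ± 0.41. In all 3 the ischemic libraries were above every sham library, and they spread over a wider range than the sham libraries. Rises of 1.34 to 1.76 on the log2 scale were also found for the lactonase Pon3 (1.76), Prdm8 (1.55), Enc1 (1.53), Ncoa7 (1.5), the sialic acid receptor Siglec5 (1.45), Ulbp1 (1.38), the actin-capping Tmod2 (1.35) and Gas7 (1.34). Fgl2 and Pon3 overlap other gene models in the table on the opposite strand, and no source used here gives the strand setting of the counting, so their levels are uncertain; the same holds for Alpk3, Aldh6a1, Gpx4, Cbfa2t3, Hsd17b10 and Pln. Models on the same strand overlap Echs1, Foxo4, Gcat, Hibadh, Hspa1l, Loxl2, Mccc1, Myot, Pdgfra and Timp2.

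Of 20 hypoxia response genes 2 fell and 0 rose, beside the 3.52% of all genes that fell. With library totals in place of TMM factors, 0 fell, 3 rose and the median was 0.0515, against -0.1358 with TMM factors. Bnip3, a mitophagy receptor that hypoxia induces, had 471, 497, 527, 752 and 483 scaled CPM in sham and 275, 376, 437, 325 and 333 in ischemic libraries, with no overlap and a log2 fold change of -0.50 ± 0.11 in both fits. Egln1, the oxygen sensor that marks HIF for destruction, had a log2 fold change of -0.56 ± 0.15 without sham library 4. Hif1a itself had 50.7, 58.9, 47.8, 10.1 and 38.95 scaled CPM in sham and 45.1, 41.8, 51.7, 39.4 and 38.1 in ischemic libraries and a log2 fold change of -0.18 ± 0.18 (adjusted p 0.546). Of 24 atrophy and proteolysis genes 1 rose and 3 fell (2 and 2 with library totals), beside 2.63% and 3.52% of all genes. The falls included the transcription factor Foxo4 (-0.83 ± 0.21). The muscle ubiquitin ligases Trim63 (-0.63 ± 0.19, adjusted p 0.0541) and Fbxo32 (-0.51 ± 0.38, adjusted p 0.409) did not pass. Of 18 mitochondrial regulators the transcription factor Tfb2m (-0.32 ± 0.09) and the nuclear receptor Ppard (-0.45 ± 0.13) fell, and the coactivator Ppargc1a (0.33 ± 0.34, adjusted p 0.574) did not pass. With library totals 0 of these 18 fell and 1 rose. Pln, the inhibitor of the calcium pump, and Prg4, the lubricin of joints and tendon sheaths, rose without sham library 4 (1.40 ± 0.38 and 1.03 ± 0.28) with overlapping groups, and sham library 4 exceeded every other sham library for both.

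**Figure D5:**
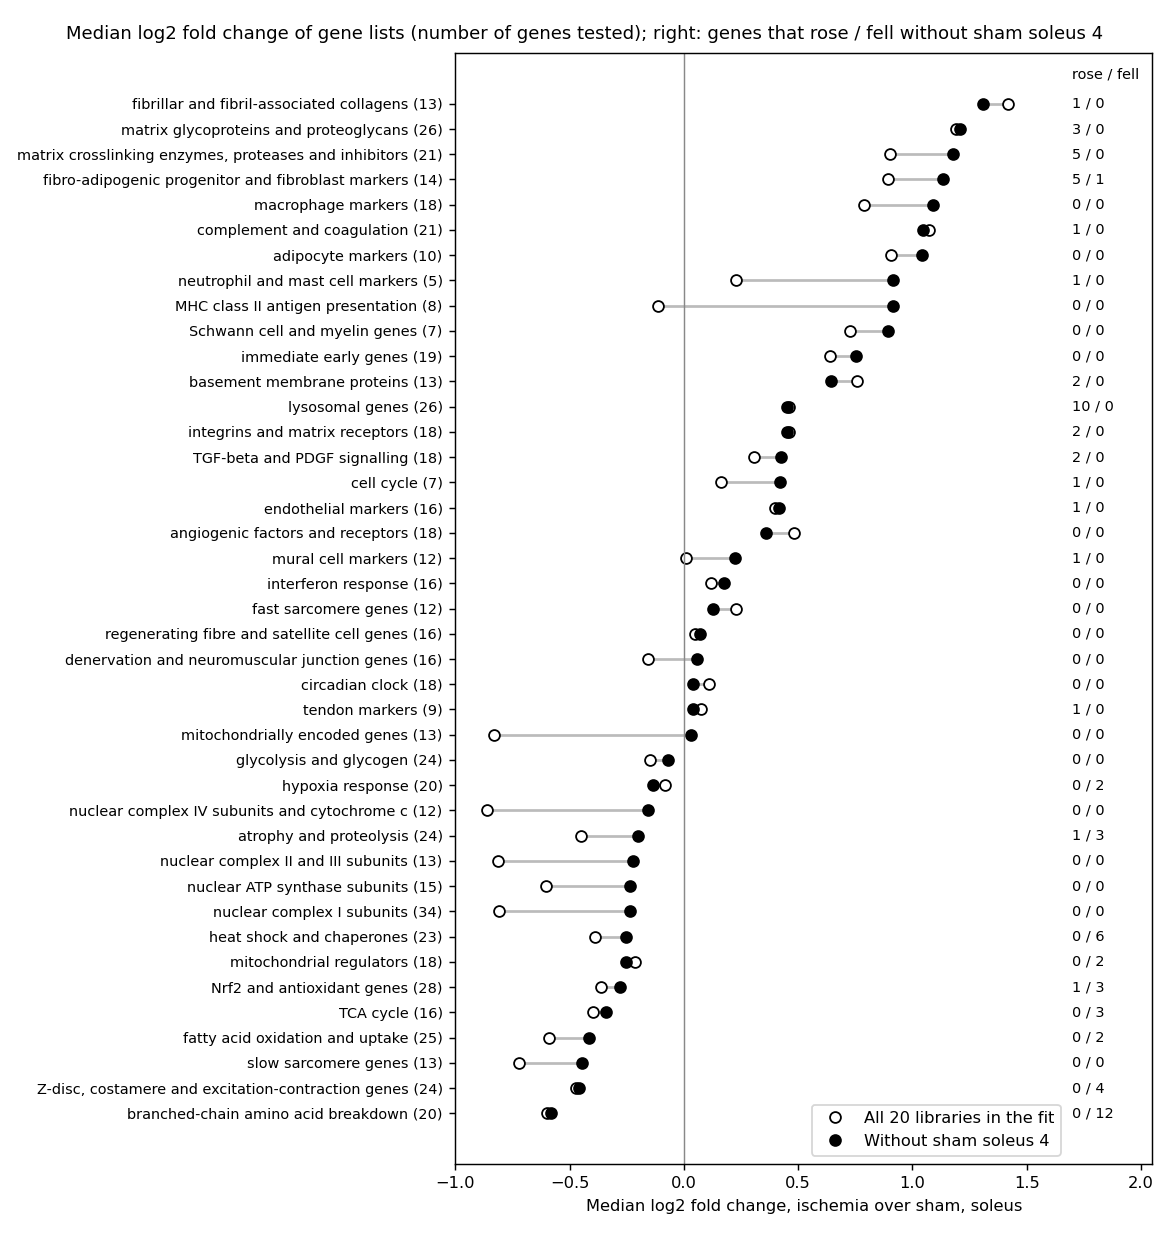
Median log2 fold change of ischemia over sham in soleus (x axis) for each gene list with at least 5 genes tested (number in brackets), open circles with all libraries, filled circles without sham library 4, and on the right the genes that rose and fell without it. Branched-chain amino acid breakdown has the lowest filled circle, at -0.58, and the collagens the highest, at 1.31. Of the lists drawn, MHC class II moves most when sham library 4 is left out, from -0.11 to 0.92.

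More genes reached 1 FPKM after ischemia. At 1 FPKM or more there were 10787 ± 102 genes (SD, n = 4) in sham libraries other than 4 and 11582 ± 164 (n = 5) in ischemic ones, with an exact two-sided permutation p of 0.01587 and 0.03175 adjusted over the 4 measures. With sham library 4 the sham mean was 10239 ± 1228 and the p was 0.007937, the smallest possible with 5 against 5. FPKM carry no TMM factor. Without sham library 4 the median log2 fold change of all genes was 0.129 in limma on log2(FPKM + 1) and -0.0122 with TMM factors. The gene count was not repeated on TMM-scaled values. The 10 most abundant genes took 27.9% ± 0.330 of the counts in sham libraries other than 4 and 28.5% ± 0.226 in ischemic ones (exact permutation p = 0.03175, adjusted 0.04233), a difference that turned round when the 50 most abundant genes were taken. Haemoglobin genes, a measure of blood in the tissue, took 0.0483% ± 0.00728 and 0.0641% ± 0.0299 of the counts (exact permutation p = 0.381).

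In gastrocnemius, 0 genes passed for ischemia against sham in edgeR's test, with 727 at an unadjusted p below 0.05. The 62 genes that rose in both soleus fits had a median log2 fold change of 0.398 there, and 50 of them were higher, while the 59 that fell had a median of -0.212 and 56 were lower; of all genes 49.4% were higher. The difference between the responses of the muscles was tested directly. It passed for 0 genes with all libraries (758 at an unadjusted p below 0.05, and 2 genes in DESeq2) and for 1 without sham library 4 (0.00855% of the genes tested, with 1013 at an unadjusted p below 0.05). That gene was Hs3st1, a heparan sulfate sulfotransferase, on chromosome 14 from 75852060 to 75882693 in the coordinates of the table, which names no build. Hs3st1 had 1.83, 1.57, 1.64, 2.94 and 2.57 scaled CPM in sham and 4.59, 4.71, 4.901, 8.34 and 6.45 in ischemic libraries in soleus, a rise of 1.6 ± 0.23 on the log2 scale with an adjusted p of 0.00847. In gastrocnemius it averaged 10.9 scaled CPM in sham and 7.36 in ischemia, a log2 fold change of -0.57. The soleus change minus the gastrocnemius change was 2.17 ± 0.31 with an adjusted p of 0.0148 without sham library 4, and 2.03 ± 0.33 with an adjusted p of 0.0652 with all libraries. No other gene can be said to respond differently in the 2 muscles by this test.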

How the data were processed

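RNA from rat soleus and gastrocnemius was measured in 4 groups of 5 libraries. Per the file headers, the deposited table pairs for each library an expected count and an FPKM value for each gene; the authors scaled the FPKM values by transcript length and sequencing depth, and the expected counts are whole numbers that were not scaled between libraries. In sham soleus library 4, 36.5% of the counts from 1 to 40 are multiples of 4, against 28.4% to 30.7% in the other soleus libraries, so counts are not read as fragments. Per the labels' protocols the libraries are stranded, poly(A)-selected and paired-end. The program that aligned or counted the reads, the build and the annotation are unnamed in the sources used here.

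A gene was tested if it reached 1 FPKM in 5 or more of all 20 libraries. TMM-scaled counts entered edgeR 4.0.16 (quasi-likelihood, robust option, R 4.3.3) with 4 group terms, with and without sham soleus library 4. The TMM factor of that library was 0.495, while the other sham soleus libraries had 1.07 to 1.09 and the ischemic ones 1.18 to 1.27. Tests are two-sided with Benjamini-Hochberg adjustment over all genes tested and a threshold of 0.05. Scaled CPM are TMM-scaled CPM, and each SE is the size of a log2 fold change over the root of F. Measures per library were compared with exact permutation tests (SciPy 1.17.1). Limma 3.58.1, DESeq2 1.42.0 and the settings in the closing section were alternatives.

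The members of the comparison, the 43 gene lists with 815 entries and the tests were chosen with earlier results of these data known. Lists are described by counts and medians only. Named genes are the 15 largest rises and 15 largest falls among those passing in both fits with at least 1 FPKM in the higher group, others passing in both fits that are in a list, the 3 members of a list with the smallest p, a panel (Myh7, Myh4, Vegfa, Hif1a, Ppargc1a, Trim63, Fbxo32 and Nqo1), and 14 genes named after their values were seen: Ace, Agtr1a, Nt5e, Enpp1, Enpp2, Acadsb, Mccc2, Bckdha, Pccb, Mmut, Hspa8, Hsph1, Gcdh and Aldh2. The text gives those that bear on a group described.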

Additional observations from a re-analysis of the deposited data

Results flagged for a closer look

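A library was marked where its gap to the nearest library of its group, over the group's range, exceeded Dixon's value of 0.71 for 5 libraries. Of 194 groups of 5 values, 45 were marked. Chance marks about 1 in 20, but that rate does not hold for genes chosen from these data. Most groups are of genes named in the text, of which 87 passed without sham soleus library 4. That library had been set apart beforehand, so the marks are a description only. Sham soleus library 4 accounted for 39 of the 45, as the highest in 23 and the lowest in 16.

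Among measures per library, sham library 4 had 8048 genes at 1 FPKM or more, 33.3% of its counts in mitochondrially encoded genes, 39.9% in the 10 most abundant genes and 0.107% in haemoglobin genes. In scaled CPM it was the highest sham library for Adhfe1 (29.2), Apobec2 (4830), Ppp1r1a (303), Klf15 (54.3), Gcat (15.4), Bnip3 (752), Ivd (463), Auh (57.9), Npc2 (63.6), Hspb2 (308), Mdh2 (1252), Hsd17b10 (306), Gpx4 (768), Prdx3 (202), Ppard (52.8), Pln (10.7), Prg4 (95.3), Atp5f1b (5470), Bckdha (863) and Aldh2 (646). It was the lowest sham library for Nid2 (7.88), Tgfbr3 (12.6), Col6a1 (44.3), Loxl2 (0.532), Tgfbr2 (4.72), Cd93 (1.97), Dbt (32.3), Aldh6a1 (201), Suclg2 (53.8), Sucla2 (146), Myot (168), Myom1 (417), Ace (7.57), Acadsb (1.22) and Mmut (21.1).

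Among ischemic libraries, library 4 was the highest for Adamts5 (32.4) and Folr2 (14.8) and the lowest for Hspa1l (30.5). Library 1 was the highest for Nudt4 (330), library 2 the lowest for Ulbp1 (4.18) and library 3 the highest for Hspb3 (40.1).

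Without sham soleus library 4, the response of Hs3st1 differed between the muscles in the test of the difference itself. The log2 fold change in soleus minus that in gastrocnemius was 2.17. With all libraries it did not pass (adjusted p 0.0652 in edgeR's test). Nor did any gene pass when sham soleus library 1, 2 or 3 was left out in addition to library 4.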

How the results depend on the processing

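The 87 genes named in the text that passed without sham soleus library 4 kept their sign under all 28 alternatives each run without it, and 5 passed under every one (Alpk3, Aldh1a1, Myot, Hs3st1 and Nqo1). The 87 were chosen for passing in these data. Most alternatives only leave 1 library out of the same fit, so kept signs say little. With all libraries, 6 of the 87 had the other sign in 1 or more alternatives, without passing: Acadsb (up to 0.352), Sucla2 (0.244), Mmut (0.204), Myom1 (0.193), Tfb2m (0.15) and Suclg2 (0.0286), each in limma on log2 FPKM. The number of genes passing was far less steady, and the cause was not tested. With all libraries (121) it was 1398 in DESeq2, 227 with RLE factors, 398 with library totals alone, 2 with no filter on low values, 3057 in voom with library quality weights, 1647 in limma on log2(FPKM + 1) and 852 on log2(FPKM + 0.1). Without sham soleus library 4 (719) it was 1659, 767, 1245, 257, 3079, 1818 and 1265 in the same order, and 2680 in the fit of the soleus libraries alone. Library totals alone moved the median log2 fold change of all genes to 0.308 with all libraries and 0.178 without sham soleus library 4. Leaving out 1 library at a time gave 1 to 737 genes with all libraries (1 without sham soleus 1 or 2, ischemic soleus 4 or ischemic gastrocnemius 3) and 35 to 1139 without sham soleus library 4 (35 without sham soleus 2, and 103 to 476 without ischemic soleus 1, 2 or 4, sham soleus 1, 3 or 5, or sham gastrocnemius 5).

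Correlations of same-numbered deviations were 0.074, -0.045, -0.015, 0.056 and 0.168 between sham and ischemic soleus. Between soleus and gastrocnemius they were -0.063, 0.138, 0.046, -0.208 and 0.319 in sham and 0.435, 0.006, 0.402, 0.192 and 0.429 in ischemia. Some pairs were below 0.1 in each set, so the numbers were not taken as pairs; 1 of 5 sham and 4 of 5 ischemic soleus libraries correlated best with their own number in gastrocnemius. With the replicate block, the fit of the soleus libraries alone gave 0 genes with all libraries and 1460 without sham soleus library 4. A replicate block within each treatment, chosen after seeing the data, gave 0 genes for the difference between muscles with all libraries (Hs3st1 at an adjusted p of 0.214 in edgeR) and 2 without sham soleus library 4, Hs3st1 and RGD1561161.

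The difference between muscles passed for 2 genes in DESeq2 and for 1 with library totals, voom and both limma fits with all libraries, for 2 in DESeq2 without sham soleus library 4, and for 0 to 1 in either set when 1 library was left out. Without sham soleus library 4, falls among the 20 branched-chain amino acid genes numbered 6 (library totals) to 16 across settings and 0 (without sham soleus 2) to 14 when 1 library was left out, with medians from -0.645 to -0.391. Under the same omissions, lysosomal rises numbered 0 (without ischemic soleus 4 or sham soleus 2) to 14, chaperone falls 0 (without sham soleus 2) to 8, and matrix enzyme rises 0 (without sham soleus 2) to 9.

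The ischemia minus sham difference in the share of the 10 most abundant genes was -1.84 percentage points with all libraries and turned to 0.557 without sham soleus library 4, which with 50 genes became -4.71 and -1.56. With 1 library left out it was -2.53 to 0.557 from the full set, and 0.424 to 0.684 from the set without sham soleus library 4. For the share of mitochondrially encoded genes, the range with 1 library left out was -1.0 to 3.03 percentage points, and for haemoglobin genes -0.00795 to 0.0158. All soleus libraries had 57.5 M counts or more, and no setting varied depth, so what depth limits was not tested.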
